A study of Capra hircus with 6 samples.

Results

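The genes described here encode the proteins with which neurons release transmitter and hold the synapse together: the synaptotagmins, synaptic vesicle proteins, SNARE proteins, active zone organisers, trans-synaptic adhesion molecules and postsynaptic scaffolds, without the receptors. They were taken by gene symbol from the count table, which gave 42 genes of 28907 rows, and all 42 were among the 16756 genes tested. The tissue was the medio-basal hypothalamus, the base of the brain around the arcuate nucleus and median eminence, of adult Alpine goats (Capra hircus). Of 18 goats in the study, 5 were in the January follicular phase of the ovarian cycle, 8 in mid-May anestrus, the season without cycles, and 5 in the January luteal phase, which was not analysed here. No other treatment is given in the labels. For each condition 2 random equimolar mixes of RNA were sequenced, so each library is a pool of goats. How many goats entered a pool, and whether a goat entered both pools of its condition, is not given in the sources used here. Season and ovarian state differ together between the groups compared and cannot be told apart, and the p-values measure the spread between 2 pools per group, not between goats.

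Neurons store transmitter in vesicles that dock at the active zone of the nerve ending. A SNARE complex of a vesicle protein (synaptobrevin, gene names VAMP) and the membrane proteins syntaxin and SNAP25 drives fusion, synaptotagmins couple it to calcium entry, and the ATPase NSF takes the complex apart for another round. Neurexins and neuroligins join the nerve ending to the receiving cell, in which scaffold proteins and the calcium/calmodulin-dependent kinase CAMK2 organise the receptors. Seasonal breeders are known for changes in the inputs that reach their reproductive neurons. The roles given below are known mostly from rodents. Neuroendocrine cells, those of the pituitary included, use part of the same release machinery.

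Library totals ran from 14553821 to 25292678 counts. Levels are in CPM, counts relative to the library total after TMM scaling, which corrects for differences in library composition. They serve to compare a gene between pools and not 1 gene with another, because gene length was not taken into account. Together the 42 genes took 0.552% to 0.708% of the counts of a library. The presence of neurons was read from markers outside the 42, and all 21 markers in the table had counts. The inhibitory marker GAD1 lay between 120.4 and 154 CPM and the excitatory marker SLC17A6 between 88.5 and 158 CPM over the 4 pools. These markers do not set the medio-basal hypothalamus apart from other brain regions. Markers of the pituitary and its pars tuberalis, which adjoins the median eminence, were also present and are given with the other cell types below.

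Most synaptic genes stood somewhat higher in the follicular phase than in anestrus, but no single gene passed the test. In edgeR's quasi-likelihood test, 0 of the 42 genes had an adjusted p under 0.05, where 0.203% of all genes tested did. DESeq2's Wald test called 2 of them, VAMP1 and CAMK2A, where it called 0.853% of all genes. Limma-voom called 0 of the 42, where it called 0.179% of all genes. Without the filter on low counts, edgeR called 4 (VAMP1, CAMK2A, CAMK2B and NRXN2), where 1.38% of all genes passed. A positive log2 fold change (follicular minus anestrus) was found for 39 of the 42, against 49.9% of all genes tested. The 42 genes were chosen with earlier results of these data known and are not independent of each other, so such counts are descriptions. The median over the 42 was 0.36, a 1.28-fold higher level, and the median over all genes tested was -0.00067. At an unadjusted p under 0.05 there were 14 of the 42 higher in the follicular phase, against 4.26% of all genes, and 0 lower, against 4.29%.

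**Figure D1:**
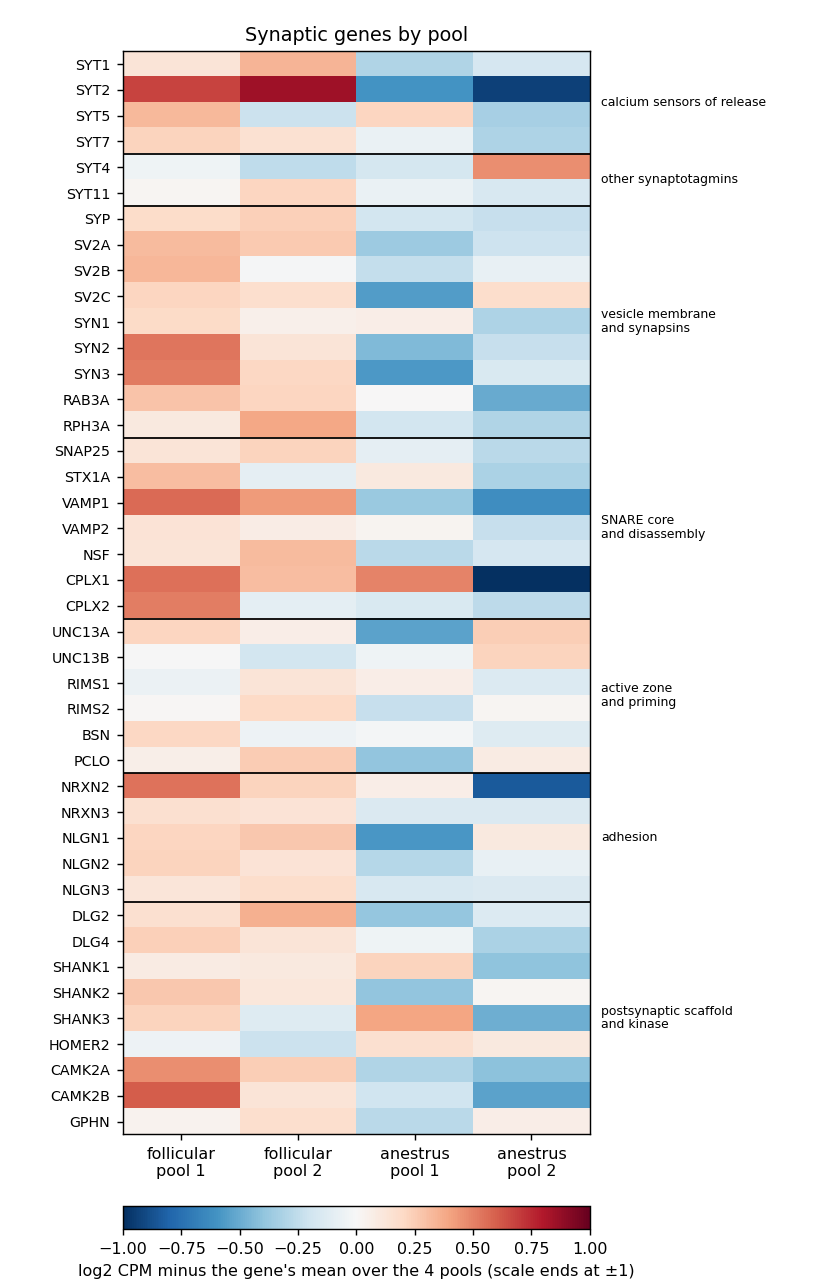
Level of each of the 42 synaptic genes (rows, grouped by role) in the 4 pools (columns), as log2 CPM minus the gene's own mean over the pools. Red is above and blue below that mean, and the colours end at ±1, a limit that CPLX1 in anestrus pool 2 passed. The 2 follicular columns are mostly red and the 2 anestrus columns mostly blue, with exceptions such as SYT4 and HOMER2.

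The pools themselves showed the same picture. The mean level of the 42 genes, on the log2 scale and centred on each gene's mean, was 0.24 and 0.15 in follicular pools 1 and 2, against -0.16 and -0.22 in anestrus pools 1 and 2. A gene's highest level lay in a follicular pool for 36 of the 42, and its lowest level in an anestrus pool for 39. For 26 genes both follicular pools were above both anestrus pools, where 17.6% of all genes tested showed this, and for 1 gene, HOMER2, both were below, where 20.7% did. The other 15 overlapped. The anestrus pools lay further apart than the follicular pools for 28 of the 42 genes, with a median gap of 0.25 on the log2 scale between the anestrus pools and 0.18 between the follicular pools. The log2 fold change exceeded both gaps for 20 genes. The count of 14 genes at an unadjusted p under 0.05 fell without either follicular pool and rose without either anestrus pool. The share over all genes at that p was not computed for those fits. The median log2 fold change of the 42 was 0.34 without follicular pool 1 and 0.36 without follicular pool 2. Leaving out anestrus pool 1 gave a median of 0.41, and leaving out anestrus pool 2 gave 0.40. In these 2 fits 7 genes each passed the adjusted threshold, where 4.72% and 3.39% of all genes then did. Without follicular pool 1, 0 of the 42 passed (0.0233% of all genes), and without follicular pool 2, 1 passed (0.553%). For a gene with 1 pool left out, the log2 fold change is given below without a p, because the group of that pool then has no spread of its own.

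Calcium sensors come first in the order of release. SYT1, the main sensor of fast synchronous release, had 457 and 529.9 CPM in follicular pools 1 and 2, against 339.6 and 372 CPM in anestrus pools 1 and 2. Both follicular pools were above both anestrus pools, and the log2 fold change was 0.47 ± 0.16 (SE) with an adjusted p of 0.404 in edgeR. SYT2, the fast sensor that many hindbrain and spinal synapses use in place of SYT1, was close to the detection limit. It had 30 and 23 counts in the follicular pools, against 7 and 7 in the anestrus pools. SYT2 reached the level needed for testing through its follicular pools, and without it the counts of this comparison were 38 positive of 41, with 13 at an unadjusted p under 0.05 and a median log2 fold change of 0.35. SYT7, a slow sensor of asynchronous release and facilitation, had 50.1 and 47.8 CPM in the follicular pools, against 40.9 and 34.6 CPM in the anestrus pools. These did not overlap, at a log2 fold change of 0.38 ± 0.19. SYT5, a calcium-binding synaptotagmin of dense-core and synaptic vesicles, had 105 and 72.5 CPM in the follicular pools, against 97.3 and 66.7 CPM in the anestrus pools. The pools of each group lay further apart than the groups, and the log2 fold change of SYT5, 0.12 ± 0.24, was -0.16 without follicular pool 1 and -0.086 without anestrus pool 2.

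The other synaptotagmins are not sensors of fast release. SYT4, a form that lacks calcium binding in its first C2 domain in mammals and sits on peptide-containing vesicles, had 638 and 549.7 CPM in follicular pools 1 and 2, against 582 and 904 CPM in anestrus pools 1 and 2. Anestrus pool 2 alone was high, and the groups overlapped. The log2 fold change of SYT4 was -0.32 ± 0.21, the lowest of the 42, with an adjusted p of 0.761 in edgeR. Leaving out anestrus pool 2 gave 0.074. Leaving out anestrus pool 1 gave -0.61, so the size of the value rests on the anestrus pool kept. SYT11, a related form, had 574 and 659 CPM in the follicular pools, against 541 and 506 CPM in the anestrus pools, without overlap and with a log2 fold change of 0.23 ± 0.16.

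Among the proteins of the vesicle membrane and its surface, all 9 genes had a positive log2 fold change, with a median of 0.48. For 7 both follicular pools were above both anestrus pools, where 17.6% of all genes tested showed this. SYP (synaptophysin), an abundant protein of the vesicle membrane, had 903 and 938 CPM in the follicular pools, against 699 and 677 CPM in the anestrus pools. Its pools lay close together in each group, and the log2 fold change was 0.42 ± 0.15 (adjusted p = 0.428, edgeR). SV2A, a vesicle glycoprotein and the binding site of the antiepileptic levetiracetam, had 319.7 and 308 CPM in the follicular pools, against 199 and 222 CPM in the anestrus pools. It was 1.49-fold higher in the follicular phase (log2 fold change 0.57 ± 0.16, adjusted p = 0.278 in edgeR), and the adjusted p was 0.015 without anestrus pool 2. Its relatives SV2B and SV2C had 0.32 ± 0.18 and 0.33 ± 0.25. SV2C had 42.3 and 41.0 CPM in the follicular pools, against 24.7 and 41.3 CPM in the anestrus pools, so that anestrus pool 1 alone was low.

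The synapsins tether vesicles to each other and to actin in the reserve pool. SYN2 had 35.3 and 26.6 CPM in the follicular pools, against 17.9 and 20.7 CPM in the anestrus pools, without overlap and with a log2 fold change of 0.68 ± 0.24 (adjusted p = 0.423, edgeR). SYN1 had 164 and 149 CPM in the follicular pools, against 151 and 116 CPM in the anestrus pools. The groups overlapped for SYN1, at 0.23 ± 0.18. SYN3, with 6.30 and 5.06 CPM in the follicular pools against 2.94 and 3.94 CPM in the anestrus pools, had 0.72 ± 0.37. In the RefSeq gene table each synapsin gene overlaps a gene of the TIMP family of protease inhibitors. TIMP3, which overlaps SYN3, had 483 and 532 CPM in the follicular pools, against 499 and 544 CPM in the anestrus pools. The overlap was read from the start and end of each gene, and overlap of exons was not examined. Where exons overlap, reads cannot be told apart without knowing the strand setting of the counting.

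RAB3A, the small GTPase that marks synaptic vesicles, had 208 and 198 CPM in the follicular pools, against 171 and 119.9 CPM in the anestrus pools. The difference on the log2 scale was 0.48 ± 0.19 (adjusted p = 0.496 in edgeR). It was 0.76 in the fit that left out anestrus pool 1 and 0.29 in the fit that left out anestrus pool 2. RPH3A (rabphilin), an effector of RAB3A, had 50.6 and 61.7 CPM in the follicular pools, against 41.5 and 38.4 CPM in the anestrus pools. Both genes had follicular pools above their anestrus pools, and the log2 fold change of RPH3A was 0.49 ± 0.19.

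**Figure D2:**
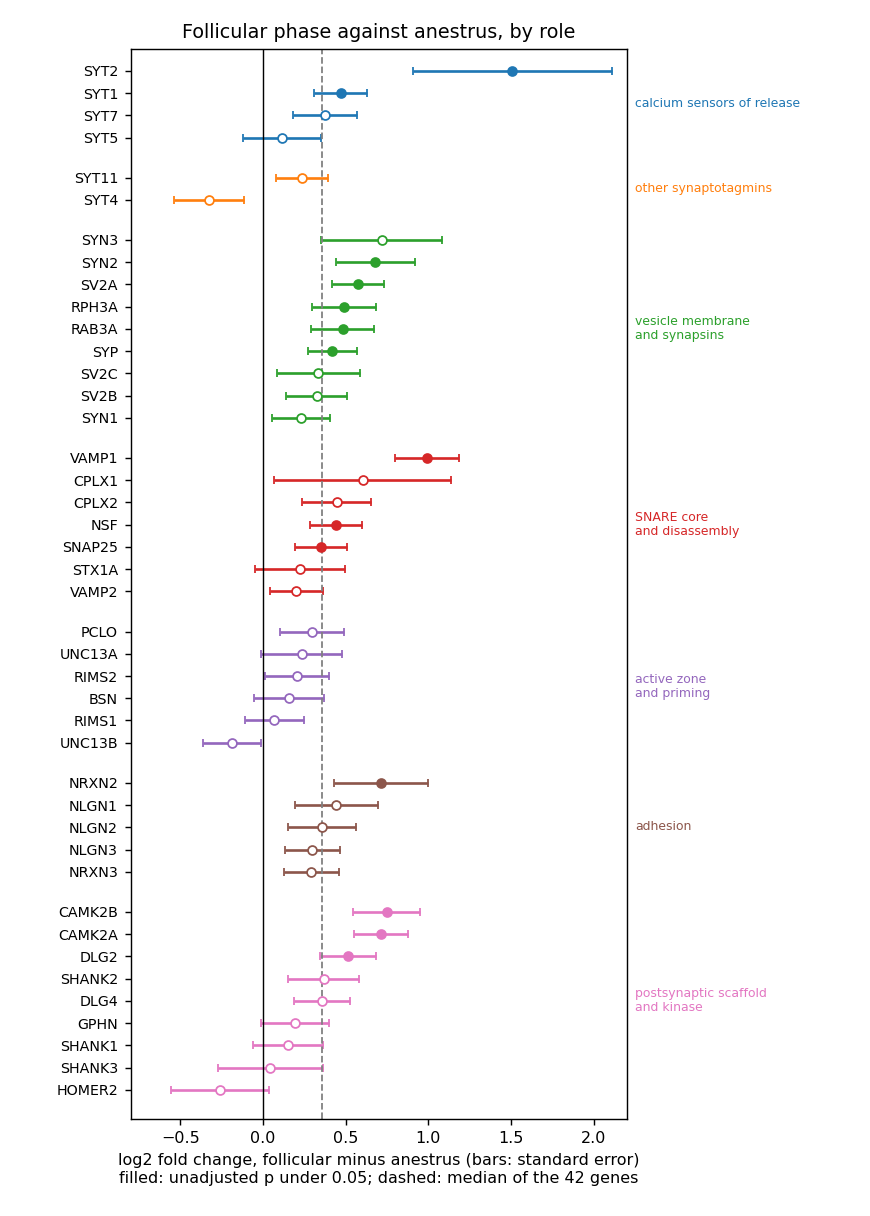
Log2 fold change of each synaptic gene, follicular minus anestrus, with its standard error (horizontal bars), grouped by role from the calcium sensors at the top to the postsynaptic genes at the bottom. Filled points have an unadjusted p under 0.05, the dashed line is the median of 0.36, and none of the 42 passed the adjusted threshold in edgeR. The 6 active zone genes lie between -0.19 and 0.30, and SYT4, HOMER2 and UNC13B lie below 0.

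The SNARE genes held the gene with the smallest p of the 42. VAMP1, the synaptobrevin that prevails at fast synapses of the brainstem and spinal cord, had 63.3 and 57.5 CPM in follicular pools 1 and 2, against 32.9 and 27.8 CPM in anestrus pools 1 and 2. Each follicular pool was well above each anestrus pool, and the difference was 1.99-fold, at a log2 fold change of 0.99 ± 0.19. The adjusted p was 0.104 in edgeR, and the gene thus did not pass. It passed in 5 of 12 alternatives, DESeq2's Wald test among them (adjusted p = 0.00255). These 5 include the omission of either anestrus pool and a replicate block by library-name number, a pairing that the labels do not give. VAMP1 did not pass when either follicular pool was left out. Over these 12 the log2 fold change of VAMP1 stayed between 0.92 and 1.12. The 12 alternatives, here and below, leave out a scaling to neuron markers, given further on, under which VAMP1 had 0.73. In the RefSeq table VAMP1 overlaps TAPBPL, a gene of antigen presentation, which had 44.3 and 33.5 CPM in the follicular pools, against 46.5 and 43.5 CPM in the anestrus pools.

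VAMP2, the main synaptobrevin of the forebrain, had 453 and 434 CPM in the follicular pools, against 419.6 and 351 CPM in the anestrus pools, a log2 fold change of 0.20 ± 0.16. The plasma membrane partner SNAP25 had 550.4 and 589 CPM in the follicular pools, against 474 and 418 CPM in the anestrus pools, at 0.35 ± 0.16 (adjusted p = 0.575, edgeR). STX1A (syntaxin), the other membrane partner, had 21.6 and 16.4 CPM in the follicular pools, against 18.6 and 14.0 CPM in the anestrus pools. Its groups overlapped. NSF had 483 and 551 CPM in the follicular pools, against 366 and 393 CPM in the anestrus pools, with no overlap and a log2 fold change of 0.44 ± 0.16 (adjusted p = 0.428, edgeR).

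Complexins clamp the assembled SNARE complex until calcium arrives. CPLX2 had 160.2 and 105 CPM in the follicular pools, against 101 and 93.7 CPM in the anestrus pools, without overlap, and its log2 fold change was 0.45 ± 0.21. CPLX1 had 6.26 and 5.29 CPM in the follicular pools, against 6.03 and 1.67 CPM in the anestrus pools. Anestrus pool 2 alone was low, from 30 counts. The log2 fold change of 0.60 ± 0.54 was -0.015 without that pool and 1.79 without anestrus pool 1. The CPLX1 value thus rests on 1 pool. All 7 genes of the SNARE group had a positive log2 fold change, with a median of 0.44.

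Genes of the active zone, where vesicles dock and are primed, had the lowest median of the role groups with 4 or more genes. That median log2 fold change was 0.18. All 6 overlapped between groups, where 10333 of the 16756 genes tested did. At an unadjusted p under 0.05 there were 0 of 6, against 4.26% higher and 4.29% lower over all genes. PCLO (piccolo), a giant scaffold of the active zone, had the largest of these values, with 93.3 and 107 CPM in the follicular pools, against 68.0 and 94.6 CPM in the anestrus pools (0.30 ± 0.19). Its partner BSN (bassoon) had 36.5 and 30.5 CPM in the follicular pools, against 31.2 and 29.0 CPM in the anestrus pools, at 0.16 ± 0.21. RIMS1, which links vesicles to calcium channels, had 63.2 and 71.8 CPM in the follicular pools, against 69.1 and 59.7 CPM in the anestrus pools. At 0.069 ± 0.18 its value was close to 0, and it was -0.024 without follicular pool 2. RIMS2 had 0.21 ± 0.19.

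The priming factor UNC13A had 90.8 and 82.0 CPM in the follicular pools, against 54.0 and 92.8 CPM in the anestrus pools. Anestrus pool 1 alone was low. The log2 fold change of UNC13A was 0.23 ± 0.24 with all pools, -0.10 without anestrus pool 1, and 0.72 without anestrus pool 2. UNC13B, its relative, was 1 of the 3 genes with a negative value, with 76.3 and 67.4 CPM in the follicular pools, against 74.3 and 89.3 CPM in the anestrus pools. The groups overlapped, at -0.19 ± 0.18 (adjusted p = 0.856, edgeR). A test of the active zone genes against the other roles was not made, so the order of these medians is a description of the 4 pools.

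For the adhesion molecules, all 5 genes had follicular pools above their anestrus pools, where 17.6% of all genes tested did. NRXN3, a presynaptic neurexin, had 76.7 and 75.6 CPM in the follicular pools, against 62.3 and 62.2 CPM in the anestrus pools, at 0.29 ± 0.17. NRXN2 had 129 and 103 CPM in the follicular pools, against 92.6 and 49.4 CPM in the anestrus pools. Its anestrus pools lay far apart, and the log2 fold change of 0.71 ± 0.28 (adjusted p = 0.531, edgeR) was 1.23 without anestrus pool 1 (adjusted p = 9.65e-07, edgeR) and 0.37 without anestrus pool 2.

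Neuroligins are the postsynaptic partners of the neurexins. NLGN1, found mainly at excitatory synapses, had 36.0 and 37.4 CPM in the follicular pools, against 20.7 and 33.1 CPM in the anestrus pools. Anestrus pool 1 was again the low one, and without anestrus pool 2 the log2 fold change of 0.45 ± 0.25 was 0.87, with an adjusted p of 0.0434 in edgeR. NLGN2, found at inhibitory synapses, had 38.4 and 36.1 CPM in the follicular pools, against 26.9 and 31.2 CPM in the anestrus pools, at 0.36 ± 0.21. NLGN3, found at both kinds, had 71.6 and 74.4 CPM in the follicular pools, against 59.0 and 59.6 CPM in the anestrus pools, at 0.30 ± 0.17. None of these values passed in edgeR with all pools.

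On the postsynaptic side, both subunit genes of the calcium/calmodulin-dependent kinase were among the 10 with a log2 fold change of at least 0.5. CAMK2A had 259 and 223 CPM in follicular pools 1 and 2, against 153 and 141 CPM in anestrus pools 1 and 2. It was 1.64-fold higher in the follicular phase without overlap (log2 fold change 0.71 ± 0.16, adjusted p = 0.195 in edgeR). Over the alternatives the log2 fold change of CAMK2A stayed between 0.62 and 0.82. CAMK2B had 172 and 124 CPM in the follicular pools, against 98.5 and 77.9 CPM in the anestrus pools. It was 1.68-fold higher (0.75 ± 0.20, adjusted p = 0.282 in edgeR), and over the alternatives its log2 fold change stayed between 0.51 and 0.97. Each of these genes passed in 4 of 12 alternatives, the omission of anestrus pool 1 among them, and neither passed without follicular pool 1.

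The scaffolds varied more. DLG2, a scaffold of the excitatory postsynaptic density, had 121 and 138 CPM in the follicular pools, against 82.7 and 98.4 CPM in the anestrus pools, at a log2 fold change of 0.52 ± 0.17 (adjusted p = 0.393, edgeR), and without anestrus pool 2 it was 0.69 with an adjusted p of 0.0256. DLG4, its best known relative, had 151 and 141 CPM in the follicular pools, against 125 and 103 CPM in the anestrus pools, at 0.36 ± 0.17. Both scaffolds had no overlap between groups. GPHN (gephyrin), the scaffold of inhibitory synapses, had 41.6 and 45.7 CPM in the follicular pools, against 33.6 and 42.5 CPM in the anestrus pools. Its groups overlapped, at 0.19 ± 0.20.

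The SHANK proteins form the deeper layer of the excitatory scaffold, and HOMER2 links them to metabotropic glutamate receptors. SHANK2 had 45.0 and 40.4 CPM in the follicular pools, against 28.4 and 37.8 CPM in the anestrus pools, at 0.37 ± 0.21. SHANK1 had 88.8 and 89.7 CPM in the follicular pools, against 97.4 and 63.3 CPM in the anestrus pools, and SHANK3 had 20.8 and 16.3 CPM in the follicular pools, against 23.4 and 12.7 CPM in the anestrus pools. For both, anestrus pool 1 was the highest and anestrus pool 2 the lowest of the 4 pools. The log2 fold change of SHANK1 was 0.15 ± 0.21, and -0.083 without anestrus pool 2. That of SHANK3 was 0.044 ± 0.32, and it was -0.12 without follicular pool 1 and -0.29 without anestrus pool 2. HOMER2 had 8.42 and 7.50 CPM in the follicular pools, against 9.74 and 9.33 CPM in the anestrus pools, and was lower in both follicular pools at -0.26 ± 0.30 (adjusted p = 0.892, edgeR).

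Because related genes can take each other's place, the ratio of the counts of 2 genes was computed in each pool for 18 pairs. Such a ratio needs no scaling to the library total. The pair of DLG4 and GPHN holds an excitatory and an inhibitory scaffold gene, which are not related. With 2 pools against 2, an exact two-sided permutation test cannot give a p below 0.333, so the ratios are given as values. VAMP1 had 0.140 and 0.132 counts per VAMP2 count in the follicular pools, against 0.0785 and 0.0792 in the anestrus pools. This ratio was 1.73-fold higher in the follicular phase, and the pools of each group lay close together, with a pooled SD of 0.039 on the log2 scale for a difference of 0.79. UNC13A had 1.19 and 1.22 counts per UNC13B count in the follicular pools, against 0.727 and 1.04 in the anestrus pools.

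SYT1 had 387 and 397 counts per SYT2 count in the follicular pools, against 692 and 958 in the anestrus pools. This was the widest of the 18 differences, at -1.06 on the log2 scale without overlap, but it rests on the 7 SYT2 counts of each anestrus pool. CAMK2A had 1.50 and 1.80 counts per CAMK2B count in the follicular pools, against 1.55 and 1.82 in the anestrus pools, which nearly coincided. DLG4 had 3.64 and 3.08 counts per GPHN count in the follicular pools, against 3.70 and 2.42 in the anestrus pools, so that the excitatory and the inhibitory scaffold gene overlapped in their ratio. SYN1 had 4.65 and 5.61 counts per SYN2 count in the follicular pools, against 8.39 and 5.62 in the anestrus pools, where anestrus pool 1 set the difference. In all, 6 of the 18 ratios had no overlap between groups, and for 8 the anestrus pools lay on either side of the follicular pools. If the 4 pools were interchangeable, no overlap would arise with a probability of 0.333, and 6 of 18 is not above that. The share over all pairs of genes was not computed.

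**Figure D3:**
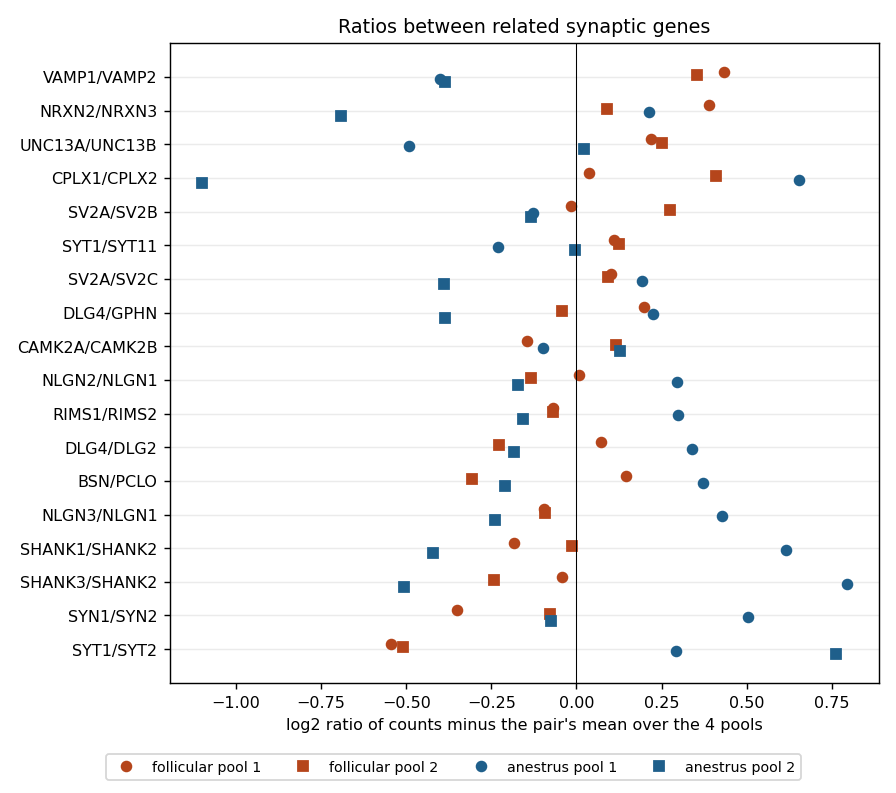
Log2 ratio of the counts of related synaptic genes, and of DLG4 and GPHN, in each pool, minus the pair's mean over the 4 pools, ordered by the difference between groups. Circles are pools 1 and squares pools 2, with follicular pools in orange and anestrus pools in blue. For VAMP1/VAMP2 the pools of each group lie together and the groups apart, while for 8 of the 18 pairs, such as SHANK3/SHANK2, the anestrus pools lie on either side of the follicular pools.

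Synaptic genes outside the 42 were read from 4 lists of other release, vesicle endocytosis, adhesion and scaffold genes, 158 of them tested. In edgeR 0 of the 158 passed the adjusted threshold, limma-voom called 0 and DESeq2 called 1, beside shares of 0.203%, 0.179% and 0.853% over all genes in edgeR, limma-voom and DESeq2. At an unadjusted p under 0.05 there were 32 higher in the follicular phase, against 4.26% of all genes, and 2 lower, against 4.29%. A positive log2 fold change was found for 126, against 49.9% of all genes, with a median of 0.23. Without anestrus pool 1 edgeR called 19 of these genes, where 4.72% of all genes passed, and without anestrus pool 2 it called 11, where 3.39% did.

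Endocytosis genes, which retrieve vesicles after fusion, had a median log2 fold change of 0.075 over 22 genes. Of these, 20 of 22 overlapped between groups, where 10333 of the 16756 genes tested did. DNM1, the neuronal dynamin that pinches vesicles off, had 265 and 233 CPM in the follicular pools, against 207 and 169 CPM in the anestrus pools, at 0.41 ± 0.17. AMPH (amphiphysin), which recruits dynamin, had 120.3 and 113 CPM in the follicular pools, against 127 and 117 CPM in the anestrus pools. For this gene the groups overlapped.

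The other release genes had a median of 0.23 over 53 genes. UNC13C, a priming factor known mainly from the cerebellum, had 13.0 and 26.0 CPM in the follicular pools, against 8.76 and 10.2 CPM in the anestrus pools, a log2 fold change of 1.03 ± 0.35 (adjusted p = 0.404, edgeR). Its follicular pools lay far apart from each other. SYT6 had 27.7 and 27.4 CPM in the follicular pools, against 17.3 and 16.0 CPM in the anestrus pools, at 0.72 ± 0.23. CPLX3, a complexin best known from the ribbon synapses of the retina, went the other way. It had 74.1 and 54.1 CPM in the follicular pools, against 103 and 97.0 CPM in the anestrus pools, at -0.64 ± 0.19 (adjusted p = 0.320, edgeR). VAMP8 and SNAP23, SNARE genes of many non-neuronal cells, had -0.44 ± 0.22 and -0.34 ± 0.29, each with both follicular pools below both anestrus pools.

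The other adhesion genes had a median of 0.23 over 39 genes, and the other scaffold genes one of 0.29 over 44. Among adhesion genes, FLRT1 and LRRTM2, ligands of presynaptic partners, had log2 fold changes of 0.88 ± 0.31 and 0.84 ± 0.30. CBLN1, a secreted ligand that bridges neurexins to delta glutamate receptors, had 123 and 119 CPM in the follicular pools, against 88.8 and 66.8 CPM in the anestrus pools, at 0.64 ± 0.18. LRRTM1 was at -0.48 ± 0.29. Of the scaffold genes, DLGAP1, which joins the DLG and SHANK layers, had 48.6 and 69.4 CPM in the follicular pools, against 31.5 and 32.6 CPM in the anestrus pools. Its adjusted p of 0.235 in edgeR was the smallest of the 158. SYNPO (synaptopodin), an actin-associated protein of dendritic spines and also of other tissues, had 74.5 and 64.0 CPM in the follicular pools, against 100.1 and 100.5 CPM in the anestrus pools, at -0.53 ± 0.17.

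**Figure D4:**
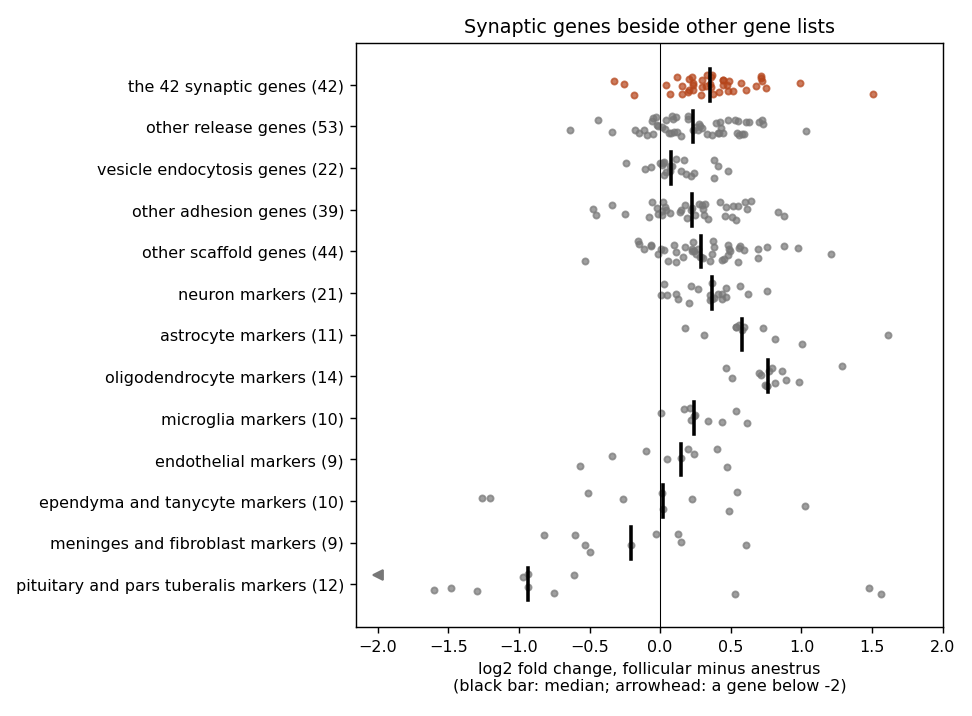
Log2 fold change, follicular minus anestrus, of every tested gene (points) in the 42 synaptic genes, 4 lists of other synaptic genes and 8 lists of cell type markers, with the number tested in brackets and the median as a black bar. The arrowhead is a gene below the axis (TSHB). The medians of the 42 synaptic genes and the neuron markers nearly coincide at 0.36, those of astrocyte and oligodendrocyte markers lie further right, and that of pituitary markers lies left of 0.

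Levels of cell type markers differed between the same pools. All 21 neuron markers tested, of which MAP2 was the most abundant, had a positive log2 fold change, with a median of 0.36, the same to 2 decimals as that of the synaptic genes. The summed level of the neuron markers was 7272 and 7693 CPM in the follicular pools, against 6674 and 5793 CPM in the anestrus pools. That of the 42 synaptic genes was 7046 and 6978 CPM in the follicular pools, against 5634 and 5725 CPM in the anestrus pools. Per CPM of neuron markers, the synaptic genes thus summed to 0.969 and 0.907 in the follicular pools, against 0.844 and 0.988 in the anestrus pools, and the groups overlapped. In bulk tissue, fewer cells of a type and less RNA per cell cannot be told apart.

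When counts were scaled to the summed neuron markers in place of the library total, 27 of the 42 synaptic genes had a positive log2 fold change and 15 a negative one, with a median of 0.085. The share of all genes with a positive value was not computed on that scale, and the 49.9% given above belongs to the main fit. VAMP1 then had 0.73 ± 0.23, CAMK2B 0.50 ± 0.23 and CAMK2A 0.45 ± 0.22, while SYT4 had -0.61 ± 0.24. These 4 were the genes with an unadjusted p under 0.05 on that scale, where the share over all genes was not computed. None of them passed the adjusted threshold, against 1.28% of all genes (edgeR adjusted p of 0.135 for VAMP1, 0.306 for CAMK2B, 0.314 for CAMK2A and 0.247 for SYT4). The neuron markers' own median depended on the pools, at 0.48 without anestrus pool 1 and 0.20 without anestrus pool 2, whereas that of the 42 synaptic genes was 0.41 and 0.40 in the same fits.

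Glial markers were also higher in the follicular pools. The 11 astrocyte markers tested, with GFAP the most abundant, summed to 12430 and 13300 CPM in the follicular pools, against 8038 and 8008 CPM in the anestrus pools. All 11 had follicular above anestrus pools, where 17.6% of all genes tested did, and their median log2 fold change was 0.58. The 14 oligodendrocyte markers summed to 3742 and 5019 CPM in the follicular pools, against 3154 and 2038 CPM in the anestrus pools, with a median of 0.77. All 10 microglia markers, led by CSF1R, had a positive value, with a median of 0.24, and the 9 endothelial markers, led by KDR, had a median of 0.15. No marker of these lists was at 0 counts in all pools.

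Pituitary and pars tuberalis markers went the other way. They summed to 6209 and 5058 CPM in the follicular pools, against 15670 and 12130 CPM in the anestrus pools, with CGA, the common hormone subunit, as the most abundant, and 9 of 12 had a negative log2 fold change. The 9 markers of meninges and fibroblasts, led by DCN, had a median of -0.21, and the 10 of ependyma and tanycytes, led by VIM, had one of 0.016. The part of these cell types in the differences of the synaptic genes was not tested.

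**Figure D5:**
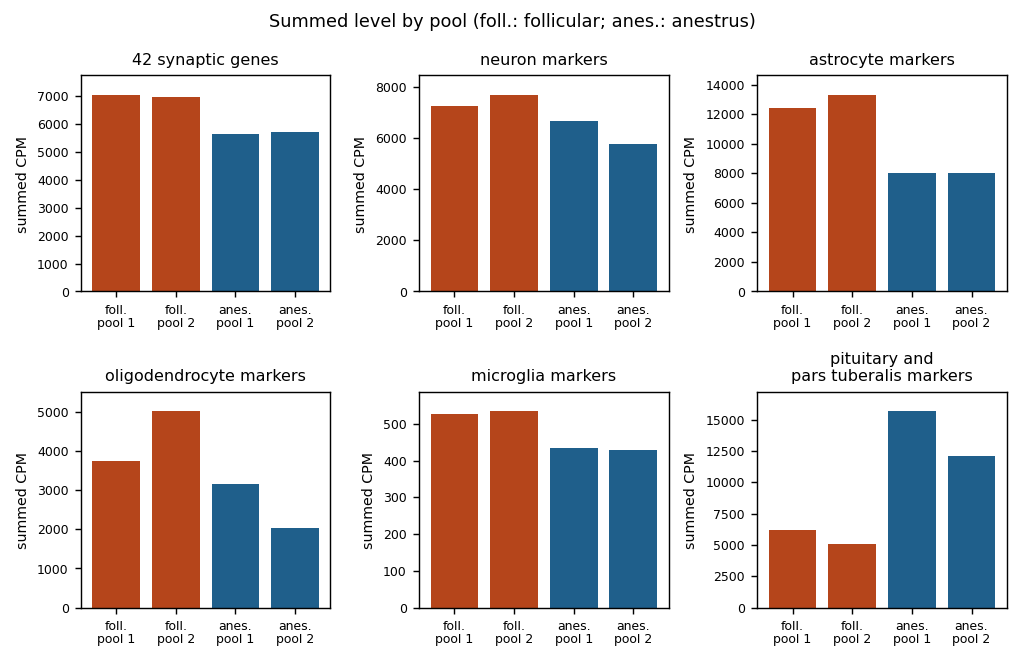
Summed CPM of the 42 synaptic genes and of 5 lists of cell type markers in each pool (bars start at 0), with follicular pools in orange and anestrus pools in blue. The sums of the synaptic, neuron, astrocyte, oligodendrocyte and microglia genes are higher in both follicular pools than in both anestrus pools, and that of the pituitary markers is lower.

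Abundance and difference were not aligned among the 42 genes. Mean levels ran from 0.849 CPM for SYT2 to 804 CPM for SYP, with a median of 73.9 CPM. Across the 42 genes, which share the same 4 libraries and are not independent, the rank correlation of mean log2 CPM with the log2 fold change was -0.013, and Pearson's r was -0.32. Depth was not close to limiting for most of them, since SYT2 was the single gene with fewer than 10 counts in a library and the lowest count of any other was 30.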

How the data were processed

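RNA from the goat medio-basal hypothalamus was extracted with TriReagent and made into libraries with the Truseq stranded mRNA kit, per the labels' protocols. The submitters' processing notes name featureCounts 2.0.0 for counting and, before it, TopHat2 2.1.1 with Bowtie2 2.3.5.1, together with bcl2fastq 2.20, SAMtools 1.9 and FastQC. The authors deposited raw counts, whole numbers without normalization. Genome build, annotation and strand setting were not given in the sources used here, and no coordinates or sequences are printed.

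Libraries were grouped by their names. The titles give the anestrus pools the opposite numbers. Genes passing filterByExpr (minimum count 10, minimum total 15) received TMM factors and went into edgeR 4.0.16 (R 4.3.3) with estimateDisp, robust glmQLFit and glmQLFTest (2 residual degrees of freedom), with Benjamini-Hochberg adjustment over all 16756 genes. The common biological coefficient of variation was 0.201. Of the 28907 rows, 1801 had an identifier without a symbol. Within each group, the pools' counts differed beyond sampling noise (chi-square per degree of freedom 19.9 and 31.3) and were counted separately. The steps were tested on simulated data. Alternatives were DESeq2 1.42.0, limma-voom 3.58.1, other scalings and filters, a replicate block and the omission of each pool. The RefSeq table of ARS1.2, used for overlapping genes, held all 42 identifiers.

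The 42 genes, the role groups, the other synaptic lists and the marker lists were chosen with earlier results of these data known. Of 165 other synaptic genes listed, 161 were in the table. Genes outside the 42 were named by rule: up to 3 in each direction per synaptic list at a mean of at least 5 CPM, and the most abundant gene of a marker list. GAD1, SLC17A6, TIMP3, TAPBPL and TSHB were named outside it, and 1 gene under it is not reported here.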

Additional observations from a re-analysis of the deposited data

How the results depend on the processing

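Log2 fold changes of the 42 synaptic genes kept their sign and their side of the threshold in 472 of 503 values over the alternatives. This count leaves out the scaling to neuron markers, under which 15 of the 42 had a negative value, beside 3 in the main fit. The number called, 0 of 42 with all pools, was 4 without a count filter (1.38% of all genes then passing), 2 in DESeq2 (0.853%), 1 with the library-name number as a replicate block (0.537%) and 0 to 7 when 1 pool was left out. Those at an unadjusted p under 0.05 and higher in the follicular phase were 7 to 20 when 1 pool was left out, beside 14. Other synaptic genes called, 0 with all pools, were 3 without a count filter, 1 in DESeq2 and 0 to 19 with 1 pool left out. The median of the neuron markers ran from 0.201 to 0.484 with 1 pool left out, beside 0.364. The median of the 42 was 0.0849 when scaled to neuron markers, beside 0.355. The cause was not tested, apart from the omission of a pool: its group then has no spread of its own. The pool left alone is then assumed to vary like the other group.

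Apart from the scaling to neuron markers, signs changed 9 times, all with 1 pool left out. The ranges then were -0.156 to 0.413 for SYT5, -0.608 to 0.0738 for SYT4, -0.0152 to 1.79 for CPLX1, -0.104 to 0.722 for UNC13A, -0.0244 to 0.177 for RIMS1, -0.0827 to 0.494 for SHANK1 and -0.291 to 0.55 for SHANK3. Under the replicate block the called gene was VAMP1 (adjusted p = 0.0296, edgeR). The titles number the anestrus pools the opposite way, and a block by those numbers was not fitted. Deviations from the group means correlated at r = 0.26 across genes between pools of the same number, but with 2 pairs and no shared origin in the labels the pools share only a number.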
